A study of Mus musculus with 16 samples.

Results

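Cluster 6 is one of the 2 clusters that the deposited cell table of a mouse spinal cord single-cell RNA series labels as microglial, and its marker genes are those of homeostatic microglia. Its members are the cells whose deposited cell type label starts with the cluster number 6, which gave 1316 of 18203 cells (7.23%). The authors made the 17 clusters from the same counts, so levels that set Cluster 6 apart from other clusters are given as a description with no test.

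The study asked how loss of the Wnt receptor Ryk from astrocytes changes the response of the spinal cord to a dorsal column lesion. Cells were dissociated with pronase, with the transcription inhibitor actinomycin D in the solutions, from tissue around the lesion core, and the title of each library carries 1 animal number. The 16 mice fell into 8 conditions of 2 mice each. Counts are of unique molecular identifiers (UMIs), that is, of captured mRNA molecules. Mice called WT were Ryk+/+,GFAPcreERT2 and mice called Ryk cKO, or cKO, were Rykfl/fl,GFAPcreERT2. Both genotypes thus carried the tamoxifen-dependent Cre under a GFAP promoter, which is directed to astrocytes and not to microglia. Each genotype had mice labelled Sham, whose titles give no spinal cord injury and which are called uninjured here, and mice taken 1 d, 7 d or 14 d past spinal cord injury (SCI). All were 8-10 weeks old. By the paper, tamoxifen was given daily for 7 days around the time of surgery, and uninjured mice were taken 14 d past the knockout. Time since tamoxifen was thus confounded with time after injury, and its part in the comparisons across time was not tested.

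Microglia are the resident macrophages of the central nervous system, and they survey the tissue with motile processes that respond to nucleotides leaking from damaged cells. In the undisturbed cord they express a set of genes, called homeostatic, that depends on TGF beta and on signalling through the CSF1 receptor and that includes the purine receptor P2ry12, the fractalkine receptor Cx3cr1, the lectin Siglech and the membrane protein Tmem119. After injury microglia can divide, take up debris and lipid, and turn on other genes such as Apoe, Spp1 and Gpnmb, while homeostatic genes are turned down.

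Depth differed strongly between mice. In the uninjured mice Cluster 6 held 79 and 39 cells in WT and 6 and 22 cells in cKO, replicate 1 first. At 1 d it held 87 and 0 cells in WT and 120 and 47 in cKO. At 7 d it held 162 and 53 cells in WT and 401 and 49 in cKO, and at 14 d 89 and 56 in WT and 55 and 51 in cKO. The 14 mice with at least 10 Cluster 6 cells were used for levels and tests, and cKO uninjured replicate 1 and WT 1 d replicate 2, which had 1 cell in all, were not. The summed Cluster 6 UMIs of the 14 mice ran from 47601 to 701871. A level below is the share of a gene in the summed UMIs of all Cluster 6 cells of a mouse, in CPM, where 10000 CPM is 1% of the UMIs. The floor of 3 counts lay between 4.27 CPM and 63.0 CPM per mouse, which covers counting error only.

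Several libraries stood apart before any comparison. In the replicate 1 mice at 1 d and 7 d of both genotypes, 4 mice called shallow here, the median Cluster 6 cell had 407 to 530 UMIs, against 2323 to 12418 in the other 10 mice. The shallow mice held 770 Cluster 6 cells (58.5%) but 10.1% of the Cluster 6 UMIs. They made up 2 of the 3 mice at 1 d, 2 of the 4 at 7 d and 0 of the 4 at 14 d, so depth and time were partly confounded.

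The same 4 libraries shared cell barcodes. Of all cells, 432 carried a barcode sequence found in more than 1 mouse, and 36 of these were in Cluster 6, 32 of them in the shallow mice. Among pairs of cells with the same barcode within the 4 shallow mice, 315 of 341 (92.4%) lay in the same cluster, against 10 of 54 pairs (18.5%) in the other mice. Without the cells with a shared barcode, 87 genes passed at 14 d against 1 d, 43 of them among the 44 given below.

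In 6 mice the prefix of the cell names in the deposited cell table gave another condition than the sample title. WT uninjured replicate 2 carried cells named as cKO uninjured, and cKO uninjured replicate 2 carried cells named as WT 7 d. WT 1 d replicate 2 carried cells named as WT 14 d, and WT 7 d replicate 2 carried cells named as WT 1 d. WT 14 d replicate 2 carried cells named as cKO 14 d, and cKO 14 d replicate 2 carried cells named as cKO 7 d. The files do not say which is right. The titles, with their labels, were used throughout, and 5 of the 6 mice are among the 14 tested.

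The titles also carry animal numbers, and the 5 tested mice with a number below 10000 had more RNA of several mitochondrially encoded genes in Cluster 6. In these 5 mice mt-Nd1, a subunit of respiratory complex I, stood at 2798, 4698 and 9433 CPM (lowest, median and highest), and in the other 9 mice at 703, 885 and 1461 CPM. These ranges did not overlap. Not all such genes followed the split, as mt-Rnr2 overlapped (6899 to 15448 against 4908 to 14193 CPM) and mt-Atp8 overlapped with the lower median in the 5 mice (269 against 371 CPM). Of the 5 mice, 1 was uninjured, 2 were at 1 d, 2 at 7 d and 0 at 14 d, so this split too was partly confounded with time. What the animal numbers stand for is not stated in the labels.

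Ryk, the targeted receptor, was read first as a check of the genotype labels. In the astrocyte Clusters 2, 5 and 7 together, Ryk stood at 54.0, 108 and 157 CPM (lowest, median and highest) in 7 WT mice and at 23.0, 87.6 and 123 CPM in 8 cKO mice. The genotypes overlapped, so these counts do not tell WT from cKO astrocytes. Whether the counted end of the Ryk transcript (GRCm38 chromosome 9, 102834917 to 102908305, plus strand) lies outside the deleted stretch is not given in the files. In Cluster 6, which Cre was not directed to, Ryk stood at 8.31, 25.9 and 51.3 CPM in 7 WT mice and at 4.33, 18.3 and 42.4 CPM in 7 cKO mice, from 114 UMIs in all. Those ranges overlapped as well. Ryk gave a log2 fold change of -0.09 for cKO against WT over the injured mice (edgeR adjusted p = 1.000), which did not pass.

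The markers matched the label. Among genes found in at least 10% of Cluster 6 cells, the 10 with the highest fold over all other cells included P2ry12 (53.8-fold), Gm10790, 8030442B05Rik, Tmem119 (41.3-fold), the fructose transporter Slc2a5, Siglech (40.0-fold), the purine receptor P2ry13, the exchange factor Fgd2 and the selectin ligand Selplg. Of these 10, 4 were on the list of 10 microglial markers and 0 on the lists for 12 other cell types. P2ry12, which senses ADP, lies on GRCm38 chromosome 3 (59216272 to 59262871, minus strand) and had at least 1 UMI in 64.7% of Cluster 6 cells. The share with P2ry12 was 34.9% in Cluster 10 and 0.357% in the endothelial Cluster 1, which should lack it, at median depths of 780.5, 1119 and 890 UMIs per cell. With cells of at least 500 UMIs thinned to 500 UMIs, the P2ry12 shares were 46.2%, 14.0% and 0.159%. Cx3cr1 was found in 85.5% of Cluster 6 cells, 66.7% in Cluster 10 and 3.00% in Cluster 1. Siglech was found in 56.7% of Cluster 6 cells and 0.190% of Cluster 1 cells, and Tmem119 in 52.5% and 0.667%. The 4 markers were thus found far above the level of free RNA in the endothelial cells.

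Of the genes that other microglial states carry, Spp1, Gpnmb and Mki67 were found in few Cluster 6 cells when all mice were pooled, and Apoe in many. The secreted phosphoprotein Spp1 had a UMI in 8.05% of Cluster 6 cells, 50.3% of Cluster 10 cells and 1.59% of endothelial cells, and in 5.28%, 37.3% and 0.729% after thinning. The membrane glycoprotein Gpnmb was found in 0.532% of Cluster 6 cells and 18.6% of Cluster 10 cells, against 0.286% of endothelial cells. Apoe, a lipid carrier, was found in 59.0% of Cluster 6 cells and 53.3% of endothelial cells (49.8% and 31.4% after thinning). The proliferation marker Mki67 had a UMI in 0.456% of Cluster 6 cells, 0.738% of Cluster 10 cells and 0.0714% of endothelial cells. After thinning, the Mki67 shares were 0.220%, 0.270% and 0.0317%. The pooled shares hide large differences between mice. After thinning, Apoe was found in 13.9% to 33.3% of Cluster 6 cells in the uninjured mice and 13.3% to 18.5% at 1 d, but in 91.1% in cKO 7 d replicate 1, which gave 224 of the thinned cells. Spp1 was found in 26.7% in WT 1 d replicate 1 and 12.5% in cKO 7 d replicate 1, and in 0% in the uninjured mice.

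By level, the 10 most abundant transcripts of Cluster 6 were Gm42418 (23648 CPM over all its cells), the protease inhibitor Cst3 (22654), the nuclear RNA Malat1, the actin-binding Tmsb4x, Apoe, mt-Rnr2, the cathepsin Ctss, Rps29, the complement subunit C1qa and the ferritin Fth1. Gm42418 overlaps ribosomal RNA and mt-Rnr2 is a ribosomal RNA, so neither is a measure of mRNA in the usual sense. Cst3, C1qa and Ctss are among the most abundant mRNAs of microglia in general.

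Markers of other cell types were low in Cluster 6, with myelin RNA the largest share. The 10 microglial markers summed to 10419, 14801 and 17351 CPM over the 14 mice (lowest, median, highest), with Cx3cr1 the most abundant and none at 0. The 10 oligodendrocyte markers summed to 1085, 1873 and 2543 CPM, mostly the myelin gene Mbp, with none at 0. The 10 astrocyte markers summed to 245, 380 and 1996 CPM, mostly the glutamate transporter Slc1a3 and highest in WT 14 d replicate 2. The 10 endothelial markers summed to 47.3, 186 and 567 CPM, with Slc2a1 on top. Oligodendrocyte RNA was thus present in each mouse, and the astrocyte sum had 1 mouse far above the rest.

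The lists for cells that enter from blood or borders were close to empty. The 14 markers of monocyte-derived and border macrophages summed to 15.8, 77.8 and 205 CPM, mostly Cd74, and Ly6c2, Cd163, Lyve1 and Clec10a had 0 UMIs. The 10 neutrophil markers summed to 0, 3.73 and 47.3 CPM, mostly S100a9, with Retnlg and Ly6g at 0. The 11 markers of T, NK and B cells summed to 0, 0 and 15.8 CPM, mostly Ms4a1, with Cd3e, Trbc2, Cd8a, Nkg7 and Gzma among those at 0. The defining markers of monocytes, neutrophils and lymphocytes were thus at or near 0 in Cluster 6. Neuronal markers summed to 126, 224 and 400 CPM (most Nefm), red blood cell markers to 1.42, 44.3 and 282 CPM (most Hbb-bs) and pericyte markers to 0, 26.3 and 105 CPM (most Rgs5). Oligodendrocyte precursor markers summed to 0, 16.8 and 45.8 CPM (most Lhfpl3, with C1ql1 at 0), fibroblast markers to 0, 4.91 and 25.9 CPM (most Col1a2) and ependymal markers to 0, 5.46 and 22.8 CPM (most Enkur). Of the 1316 cells, 43 (3.27%) held more than 1% of UMIs from the markers of another type, 36 of them from oligodendrocyte markers.

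Within the same mice, Cluster 6 had more of the homeostatic genes than Cluster 10, the other microglial cluster (813 cells). In 14 mice with at least 10 cells of both, P2ry12 averaged 1411 ± 515 CPM (SD) in Cluster 6 and 286 ± 244 CPM in Cluster 10 and was higher in Cluster 6 in 14 of 14. Siglech averaged 894 ± 325 and 210 ± 155 CPM, higher in 14 of 14. Tmem119 averaged 717 ± 174 and 209 ± 193 CPM, also higher in 14 of 14. For Cx3cr1 the means were 3826 ± 867 and 1761 ± 895 CPM, and the 1 exception to 13 higher mice was WT uninjured replicate 1 with 4083 and 4124 CPM. The differences were large for the marker genes and small for C1qa, which both clusters carry. C1qa, which starts the classical complement pathway, averaged 6434 ± 1838 and 6191 ± 1672 CPM.

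**Figure D1:**
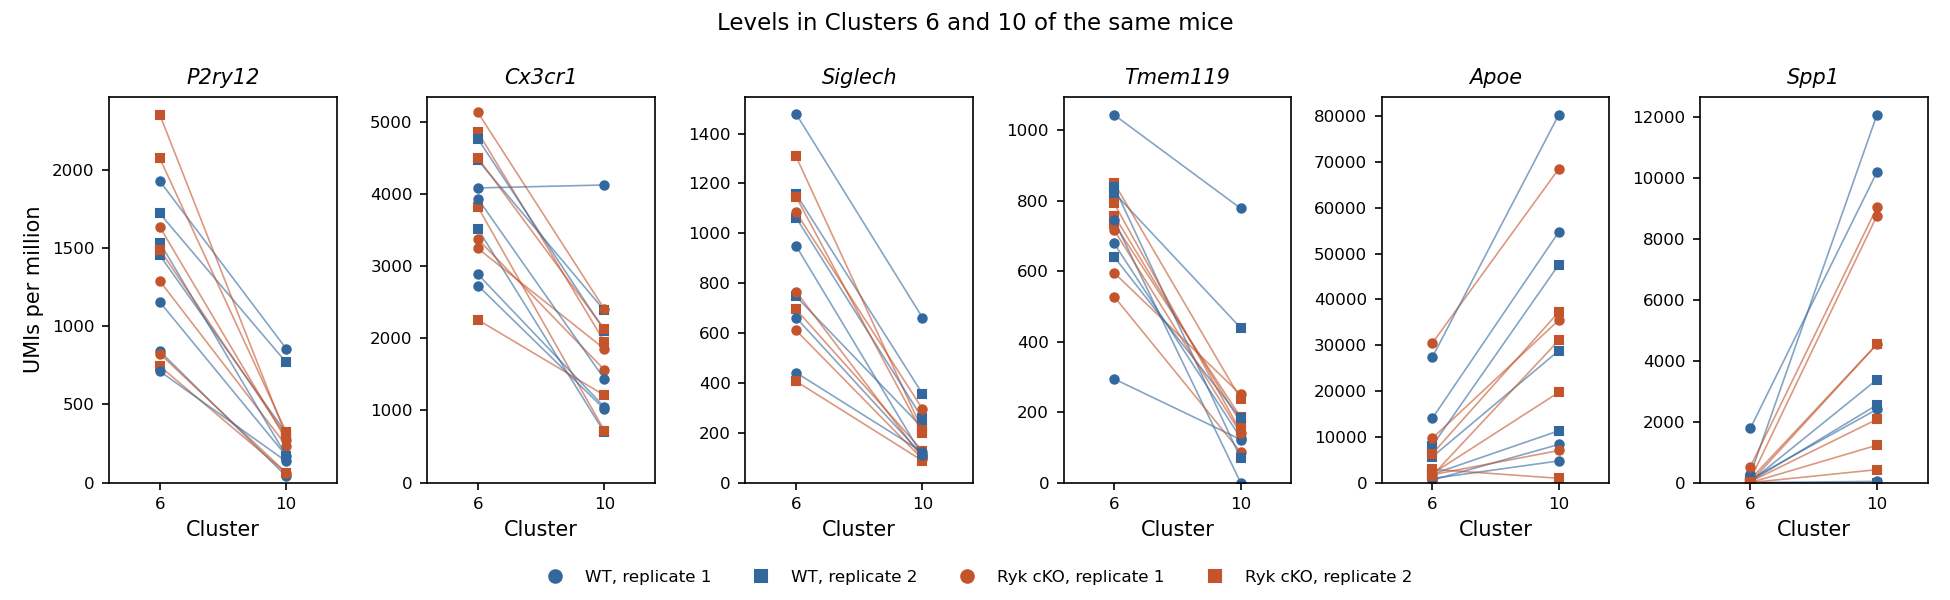
Levels (CPM) of 6 genes in Clusters 6 and 10 of the same 14 mice, with 1 line per mouse, WT in blue, Ryk cKO in orange, replicate 1 as circles and replicate 2 as squares. P2ry12, Siglech and Tmem119 were higher in Cluster 6 in 14 of 14 mice. Spp1 was higher in Cluster 10 in 13 mice and at 0 in both clusters of WT uninjured replicate 2.

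Some genes were higher in Cluster 10, and of the 4 given here Lyz2 and Ctsb were chosen after their values were seen. Spp1 averaged 216 ± 474 CPM in Cluster 6 and 4371 ± 4026 CPM in Cluster 10. It was higher in Cluster 10 in 13 mice and had 0 UMIs in both clusters of WT uninjured replicate 2. Apoe averaged 8058 ± 9668 and 31112 ± 24702 CPM, with cKO 1 d replicate 2 as the 1 mouse where Cluster 6 was higher. Lyz2, the lysozyme of macrophages, averaged 553 ± 412 and 3250 ± 2561 CPM, and the cathepsin Ctsb 1895 ± 850 and 4661 ± 2084 CPM, both higher in Cluster 6 in 0 of 14. In Cluster 6 the SDs of Apoe and Spp1 were larger than their means, while in Cluster 10 they were smaller.

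Against Cluster 12 (288 cells), which the table labels as immune cells, 10 mice had at least 10 cells of both. P2ry12 averaged 1248 ± 472 CPM in Cluster 6 and 54.7 ± 33.6 CPM in Cluster 12, higher in 10 of 10. Sall1, a transcription factor of microglia within the brain's macrophages, averaged 221 ± 94.8 CPM in Cluster 6 and had 0 UMIs in Cluster 12. The chemokine receptor Ccr2, carried by monocytes, averaged 2.83 ± 4.70 and 540 ± 264 CPM, and the invariant chain Cd74 55.8 and 5691 CPM, both lower in Cluster 6 in 10 of 10 mice. Microglial genes were thus on the side of Cluster 6 and monocyte genes on that of Cluster 12.

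Across time, 5 comparisons were made in 1 edgeR fit over 14 mice, 8 conditions and 7394 genes. The p-values below come from this 1 fit with at most 2 mice per condition, are adjusted over all genes tested and pass under 0.05. Between 14 d and 1 d, 44 genes passed (0.595%), 9 higher (0.122%) and 35 lower (0.473%) at 14 d. Between 1 d and uninjured 2 genes passed (0.027%), Ran and Pcna, both higher at 1 d. After injury against uninjured, at 7 d against uninjured and at 14 d against uninjured, 0 genes (0%) passed with edgeR. At an unadjusted p under 0.05 those 3 had 559, 531 and 541 genes, and DESeq2 called 0, 2 and 0. Leaving out 1 mouse gave at most 2 genes after injury (without WT uninjured replicate 1), 3 at 7 d (without cKO 7 d replicate 2) and 1 at 14 d (without WT uninjured replicate 2). The comparisons with uninjured share 3 uninjured mice, and those at 1 d share the 1 d mice, so they are not independent. Of all genes tested, 47.9%, 58.2% and 59.7% had a log2 fold change above 0 at 1 d, 7 d and 14 d against uninjured. At 14 d against 1 d that share was 60.3%. Counts of list members above and below 0 are to be read beside these shares.

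At 14 d against 1 d, chemokines and cell cycle genes were among the 35 that fell in Cluster 6, and 9 rose. Ccl12, a chemokine that draws monocytes, at 1 d had a level of 2101 CPM in WT and of 656 and 1502 CPM in cKO. At 14 d it stood at 38.8 and 49.9 CPM in WT and 157 and 26.8 CPM in cKO. Each 1 d mouse was far above each 14 d mouse, and the uninjured mice, with 51.7, 85.1 and 47.4 CPM, were at the 14 d level. Ccl12 fell by 4.47 ± 0.61 on the log2 scale (SE, 4 against 3 mice, edgeR adjusted p = 0.0115). Ccl2, another ligand of the receptor Ccr2, stood at 378, 61.1 and 82.2 CPM at 1 d and at 8.31, 14.2, 29.9 and 16.5 CPM at 14 d, and fell by 3.24 ± 0.46 (adjusted p = 0.00139). The WT mouse was highest at 1 d for both, and the sides did not overlap. Both genes lie on GRCm38 chromosome 11, Ccl2 at 82035571 to 82037453 and Ccl12 at 82101845 to 82103400, and they are similar in sequence, so how reads were split between them was not tested.

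**Figure D2:**
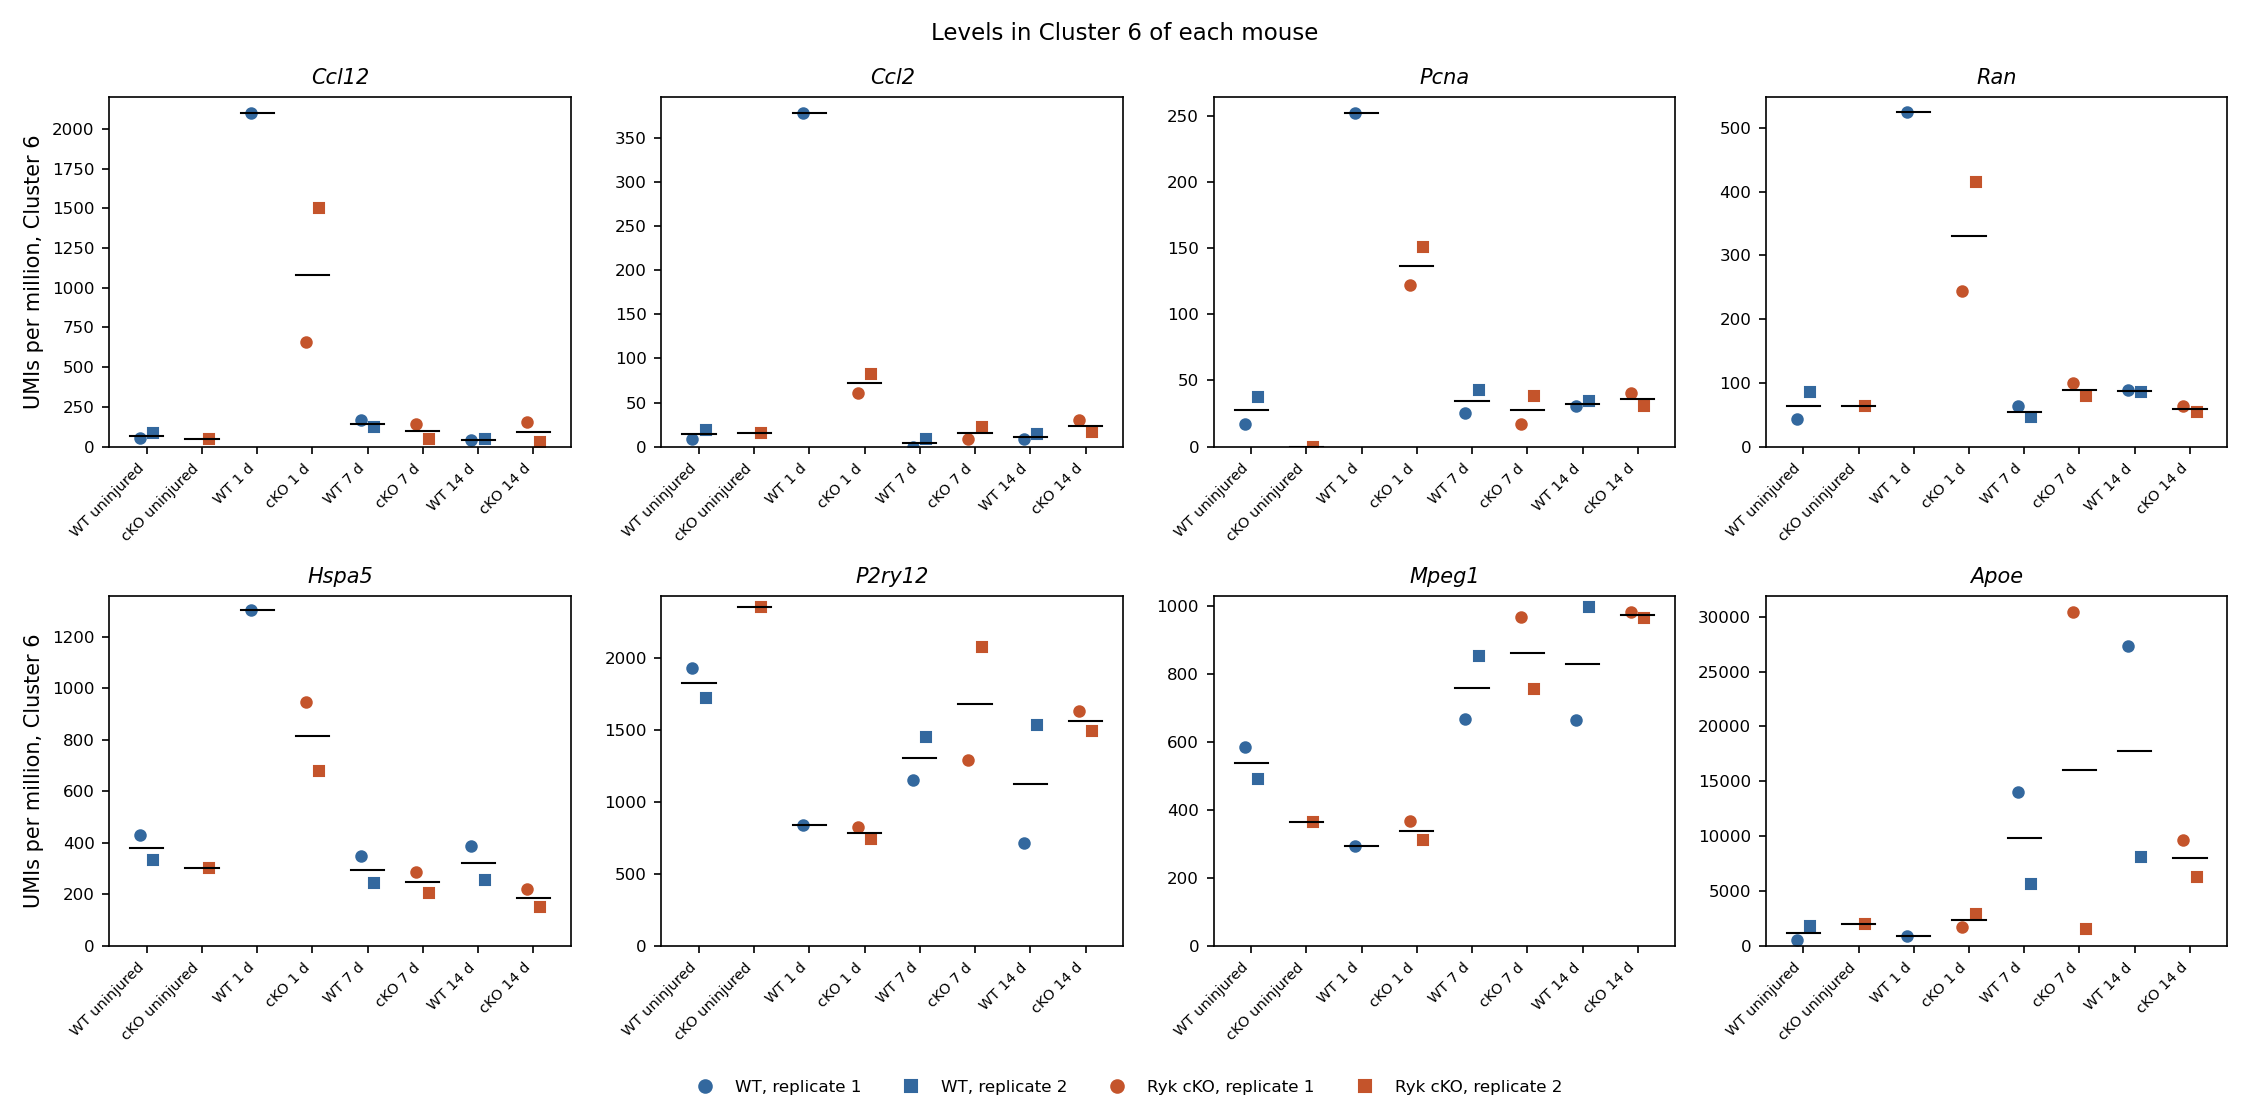
Level (CPM) of 8 genes in Cluster 6 of each of 14 mice by condition, WT in blue, Ryk cKO in orange, replicate 1 as circles, replicate 2 as squares, black bars the condition means. Ccl12, Pcna, Ran and Hspa5 were highest in the 3 mice at 1 d, and Mpeg1 was higher in each 14 d mouse than in each 1 d mouse.

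Msr1, Dab2, C5ar1 and Flt1 were also among the 35. Msr1, a scavenger receptor for modified lipoproteins, stood at 147, 153 and 68.5 CPM at 1 d and at 2.77, 5.70, 9.43 and 0 CPM at 14 d, with 32 and 11 UMIs behind them. It fell by 4.46 ± 0.95 (adjusted p = 0.0411), and the sides did not overlap. Dab2, a clathrin adaptor, stood at 168, 153 and 114 CPM at 1 d and 13.8, 19.9, 9.43 and 10.3 CPM at 14 d, and fell by 3.38 ± 0.64 (adjusted p = 0.0158). C5ar1, the receptor for complement C5a, stood at 336, 275 and 292 CPM at 1 d, 80.3, 107, 95.8 and 103 CPM at 14 d and 81.9, 94.5 and 221 CPM uninjured. It fell by 1.59 ± 0.35 (adjusted p = 0.0411), with the 1 d mice above all others. Flt1, a VEGF receptor that is also on the endothelial marker list, stood at 147, 168 and 132 CPM at 1 d and 30.5, 49.9, 4.71 and 4.13 CPM at 14 d, and fell by 3.29 ± 0.58 (adjusted p = 0.00960). The endothelial marker sum, Flt1 included, was 567, 366 and 365 CPM at 1 d and 125, 308, 67.6 and 68.1 CPM at 14 d. Its part in the result for Flt1 was not tested.

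Pcna, Mcm6, Mcm5 and Pola1, which act in DNA replication, were higher in each 1 d mouse than in each 14 d mouse. Pcna, the sliding clamp of DNA polymerase, had 252 CPM in WT and 122 and 151 CPM in cKO at 1 d, and 30.5, 34.2, 40.9 and 30.9 CPM at 14 d. In the uninjured mice it stood at 17.2, 37.8 and 0 CPM, below each 1 d mouse. Pcna passed at 14 d against 1 d, where it fell by 2.37 ± 0.40 (adjusted p = 0.00684), and at 1 d against uninjured (adjusted p = 0.0382). For the latter no fold is given, since the 1 cKO uninjured mouse had 0 UMIs, with a floor of 47.4 CPM. Mcm6, a subunit of the replicative helicase, stood at 147, 91.6 and 86.7 CPM at 1 d and 11.1, 7.12, 12.6 and 2.06 CPM at 14 d, and fell by 3.65 ± 0.66 (adjusted p = 0.0115). Mcm5, another helicase subunit, stood at 105, 76.3 and 73.0 CPM at 1 d against 3 UMIs in all 4 mice at 14 d (adjusted p = 0.0158), so no fold is given. Pola1, a subunit of DNA polymerase alpha, fell by 3.00 ± 0.64 (adjusted p = 0.0333), from 45.8 to 168 CPM at 1 d to 2.77 to 21.4 CPM at 14 d. In these 4 genes the 2 sides did not overlap. Of the cell cycle list, 10 of 20 genes were tested and 3 passed at 14 d against 1 d (Pcna, Mcm5 and Mcm6, each lower), beside 0.595% of all genes tested. The count filter can favour genes that were high at 1 d, so the 3 of 10 carry this limit and no median is given. All 20 genes summed to 1134, 870 and 927 CPM at 1 d, 246, 188, 189 and 173 CPM at 14 d and 168, 284 and 284 CPM in the uninjured mice, and this sum was not tested.

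Ran, the small GTPase of nuclear transport, passed in both comparisons. It stood at 525 CPM in WT and 244 and 415 CPM in cKO at 1 d, at 43.1, 85.1 and 63.2 CPM in the uninjured mice and at 88.6, 85.5, 64.4 and 53.6 CPM at 14 d. No 1 d mouse overlapped with any other. Ran rose by 2.68 ± 0.47 at 1 d against uninjured (3 against 3 mice, edgeR adjusted p = 0.0382) and fell by 2.48 ± 0.34 at 14 d against 1 d (adjusted p = 0.00139). Nme1, a nucleoside diphosphate kinase, stood at 231, 244 and 320 CPM at 1 d and 60.9, 24.2, 37.7 and 41.3 CPM at 14 d, and fell by 2.59 ± 0.49 (adjusted p = 0.0158). Srm, the spermidine synthase, Ddx39, a helicase of mRNA export, and Ppa1, an inorganic pyrophosphatase, fell by 2.63 ± 0.58, 2.88 ± 0.59 and 2.96 ± 0.66, each from 20 to 24 UMIs at 1 d. For these 3 the adjusted p lay between 0.0255 and 0.0411.

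Further genes that fell are named here after their values were seen. Hspa5, the main chaperone of the endoplasmic reticulum, stood at 1302, 946 and 680 CPM at 1 d and 388, 255, 220 and 151 CPM at 14 d, and fell by 1.94 ± 0.32 (adjusted p = 0.00676). The uninjured mice stood at 431, 331 and 300 CPM, at the upper end of the 14 d mice. Calr, a calcium-binding chaperone of the same compartment, stood at 1513, 1053 and 972 CPM at 1 d and 399, 356, 382 and 400 CPM at 14 d, and fell by 1.58 ± 0.32 (adjusted p = 0.0225). Sdf2l1, a cochaperone of Hspa5, stood at 483, 382 and 374 CPM and at 88.6, 92.6, 61.3 and 68.1 CPM, and fell by 2.39 ± 0.37 (adjusted p = 0.00404). Tubb5, a beta tubulin, stood at 966, 366 and 603 CPM and at 213, 161, 137 and 116 CPM, and fell by 2.08 ± 0.33 (adjusted p = 0.00553). In these genes too the sides did not overlap. Fcgr4, an Fc receptor for IgG, fell by 2.46 ± 0.49 (adjusted p = 0.0225).

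The genes that rose at 14 d numbered 9 beside the 35 that fell. That balance depended on the setting, with 68 higher and 63 lower without the low-count filter, 32 higher and 34 lower with cells of at least 500 UMIs, and 3 higher and 40 lower with DESeq2. It was 1 higher and 61 lower in the deeper mice, 5 higher and 78 lower with animal numbers of at least 10000, and 1 higher and 34 lower without WT 1 d replicate 1. Mpeg1, a pore-forming protein of macrophage phagosomes, stood at 294, 366 and 310 CPM at 1 d, 665, 996, 982 and 965 CPM at 14 d and 586, 491 and 363 CPM uninjured. It rose by 1.60 ± 0.35 (adjusted p = 0.0363), and each 14 d mouse was above each 1 d mouse. Tab2, an adaptor of TAK1 kinase signalling, stood at 42.0, 61.1 and 119 CPM at 1 d and 169, 298, 355 and 301 CPM at 14 d, and rose by 2.16 ± 0.46 (adjusted p = 0.0333). Il6ra, the interleukin 6 receptor, stood at 63.0, 198 and 173 CPM at 1 d and 252, 398, 339 and 336 CPM at 14 d, and rose by 1.70 ± 0.39 (adjusted p = 0.0449). For both, the uninjured mice (216 to 253 CPM for Tab2, 227 to 306 CPM for Il6ra) lay above the 1 d mice. Another 6 genes passed with 0 UMIs in the WT 1 d mouse, whose floor was 63.0 CPM, so no fold is given. They include the lysosomal transcription factor Tfeb (0, 30.5 and 13.7 CPM at 1 d, 72.0, 72.7, 86.4 and 80.4 CPM at 14 d), Bach1, a repressor of heme oxygenase (0, 15.3 and 63.9 CPM, then 85.8, 167, 156 and 146 CPM), Parp14 (0, 45.8 and 36.5 CPM, then 138, 157, 129 and 107 CPM) and Fbrsl1 (0, 91.6 and 41.1 CPM, then 105, 205, 151 and 194 CPM). The inhibitor Nfkbia (0, 168 and 173 CPM, then 233, 245, 149 and 165 CPM) and the kinase Stk4 (0, 122 and 59.4 CPM, then 136, 158, 101 and 182 CPM) overlapped between the sides.

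Marker sums of other cell types also differed between these times. The oligodendrocyte sum was 1786, 2473 and 1808 CPM at 1 d and 1182, 1348, 1244 and 1085 CPM at 14 d, and the red blood cell sum 147, 76.3 and 91.3 CPM and 16.6, 1.42, 1.57 and 8.25 CPM, both without overlap. Without the cells that held more than 1% of UMIs from the markers of another type, 50 genes passed, 42 of them among the 44, and 43 of the 44 kept their direction (Ly6c1 turned from -3.97 to 0.31). The part of RNA from outside the cells in these calls was not tested.

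Of the 44 genes, 41 did not overlap between the 14 d and the 1 d mice, beside 1401 (18.9%) of all 7394 genes tested. The calls of DESeq2 numbered 43, with 17 of them among the 44. DESeq2 gave an adjusted p for 1660 of the 7394 genes and for 23 of the 44, so the other 21 could not be called by it. With DESeq2 the median log2 fold change over all genes tested was 0.10 where edgeR gave 0.23, and no list named for 14 d against 1 d changed the sign of its median. The number rested on single libraries. It was 4 without cKO 1 d replicate 2 (Hspa5, Ran, Ccl12 and Sdf2l1) and 4 without cKO 14 d replicate 2 (Ran, Ccl2, Ccl12 and Sdf2l1), 14 without cKO 14 d replicate 1 and 17 without WT 14 d replicate 2. Without WT 1 d replicate 1 it was 35, with 15 of them among the 44. It was 74 without cKO 7 d replicate 1, 73 without cKO 7 d replicate 2 and 246 without WT 14 d replicate 1. With the 10 deeper mice alone, which leave 1 mouse at 1 d, 62 genes passed, 14 of them among the 44. With animal number as a term in the fit, 4 passed (Pcna, Ran, Ccl2 and Tubb5), and among mice with numbers of at least 10000, which leave cKO 1 d replicate 2 alone at 1 d, 83 passed, 16 of them among the 44. Where 1 mouse was left at 1 d, the spread was taken from other conditions. The 44 genes kept their direction under each setting of this paragraph.

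The conflict over conditions also bears on this count. When each mouse took the condition in its cell names, edgeR called 0 genes at 14 d against 1 d, though 44 of 44 kept their direction. Without the 5 tested mice in conflict, 58 genes passed, 28 of them among the 44, and again 44 of 44 kept their direction. WT 7 d replicate 2, whose cells are named as WT 1 d, had 124 CPM of Ccl12, 43.1 CPM of Pcna and 242 CPM of Hspa5. The 3 mice titled 1 d had 656 to 2101, 122 to 252 and 680 to 1302 CPM, but these genes were picked under the titles and do not decide between titles and cell names.

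The 2 genes of 1 d against uninjured were as sensitive. Beside them, 899 genes had an unadjusted p under 0.05, and DESeq2 called 17, among them Ran, Ccl12 and P2ry12. The count was 0 without the cells that held markers of another type and with at least 30 cells per mouse. It was also 0 without cKO uninjured replicate 2, WT 1 d replicate 1, cKO 1 d replicate 2 or WT 7 d replicate 1. Without WT uninjured replicate 1 the count was 1, a gene other than Ran and Pcna. Without cKO 1 d replicate 1 the count was 1, which was 1 of these 2 genes. It was 12 without cKO 7 d replicate 1, 10 without cKO 7 d replicate 2 and 5 without WT 14 d replicate 2. Without the mice in conflict 33 genes passed, Ran and Pcna among them, but this left WT uninjured replicate 1 as the 1 uninjured mouse, with the spread taken from other conditions. With conditions read from the cell names 0 passed. Leaving out WT uninjured replicate 2, WT 7 d replicate 2, cKO 14 d replicate 1 or cKO 14 d replicate 2 each gave 3. Marker sums of other types differed as well, with endothelial markers at 81.9, 47.3 and 174 CPM uninjured and 567, 366 and 365 CPM at 1 d, and red blood cell markers at 8.62, 66.2 and 31.6 CPM and 147, 76.3 and 91.3 CPM, both without overlap.

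The genes that name the cluster stood lower in each 1 d mouse than in each uninjured mouse, and none passed with edgeR. P2ry12 stood at 1927, 1720 and 2352 CPM in the uninjured mice (2 WT, then cKO) and at 840, 824 and 744 CPM at 1 d (WT, then 2 cKO). At 7 d it stood at 1155 and 1453 CPM in WT and 1289 and 2073 CPM in cKO, and at 14 d at 712 and 1534 CPM in WT and 1634 and 1489 CPM in cKO. Of the later mice, WT 14 d replicate 1 was below the 1 d mice. For 1 d against uninjured P2ry12 had a log2 fold change of -1.48 ± 0.39, with an adjusted p of 0.158 in edgeR and 0.0150 in DESeq2, and of 0.0150 to 0.776 over the alternatives. Cx3cr1 stood at 4083, 3516 and 3821 CPM uninjured and 2731, 3373 and 2255 CPM at 1 d (-0.59, adjusted p = 0.560), with 2886 to 4858 CPM at 7 d and 3932 to 5129 CPM at 14 d. Siglech stood at 1479, 747 and 695 CPM uninjured and 441, 611 and 406 CPM at 1 d (-1.03 ± 0.40, adjusted p = 0.319), with 766 to 1308 CPM at 7 d and 662 to 1147 CPM at 14 d. Tmem119 stood at 1043, 822 and 758 CPM uninjured and 294, 595 and 735 CPM at 1 d (-1.04 ± 0.37, adjusted p = 0.291), with 528 to 850 CPM at 7 d and 678 to 839 CPM at 14 d. For 1 d against uninjured, Tmem119 ran from -1.23 to -0.38 on leaving out 1 mouse. Over all alternatives Tmem119 ran from -1.36 to -0.06 and Siglech from -1.78 to -0.78. Of the 29 tested genes of the homeostatic list, 20 (69.0%) did not overlap between 1 d and uninjured, each lower at 1 d. Of all 7394 genes tested, 1284 (17.4%) did not overlap, 764 higher and 520 lower at 1 d.

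Of the 30 listed homeostatic genes, 29 were tested and 0 passed at 1 d against uninjured, 4 with a log2 fold change above 0 and 25 below, with a median of -0.80 beside -0.06 over all genes tested. At 14 d against 1 d, 0 passed, 23 were above 0 and 6 below, with a median of 0.57 beside 0.23. As a share of Cluster 6 UMIs, the 30 genes made up 7.42%, 7.64% and 8.11% in the uninjured mice and 4.89%, 4.97% and 4.43% at 1 d. At 7 d they made up 6.39%, 5.27%, 5.48% and 5.75%, and at 14 d 7.16%, 5.76%, 5.85% and 5.55%. The share was thus highest uninjured and lowest at 1 d, with 7 d and 14 d between. The share was not tested as a single value, since the clusters were made from these genes.

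Of the regulators of that program, no tested gene passed in these comparisons. Of all genes tested, 47.9% were above 0 at 1 d against uninjured and 60.3% at 14 d against 1 d (medians -0.06 and 0.23). Of 14 tested genes of the list of the CSF1 receptor and microglial transcription factors, 3 were above 0 and 11 below at 1 d against uninjured (median -0.58, also with bounds), and 12 above and 2 below at 14 d against 1 d (median 0.78). Mef2c, a transcription factor of microglia, stood at 1345, 1163 and 1421 CPM uninjured, 861, 870 and 772 CPM at 1 d and 1088 to 1422 CPM at 14 d. Csf1r, which microglia need to survive, stood at 2578, 2108 and 2542 CPM uninjured and 2101, 2473 and 1566 CPM at 1 d. The Mef2c values of 1 d lay below all others, while those of Csf1r overlapped. Maf stood at 539, 822 and 805 CPM uninjured and 378, 290 and 429 CPM at 1 d, and Mef2a at 1759, 926 and 1042 against 609, 946 and 781 CPM.

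Of 11 tested genes of TGF beta signalling, 2 were above 0 and 9 below at 1 d against uninjured (median -0.59). At 14 d against 1 d, 11 were above and 0 below (median 0.42), and 0 passed in either. Over all genes tested, 47.9% and 60.3% were above 0 in these comparisons (medians -0.06 and 0.23). Tgfbr1, the kinase subunit of the TGF beta receptor, stood at 1884, 1238 and 2037 CPM uninjured and 672, 1175 and 790 CPM at 1 d, without overlap (-1.27 ± 0.39, adjusted p = 0.213). Tgfbr2, the subunit that binds the ligand, stood at 505, 520 and 442 CPM uninjured and 462, 504 and 269 CPM at 1 d. The corepressors Ski and Skil had log2 fold changes of -0.64 and -0.81. Of 7 tested genes of purine receptors and ectonucleotidases, 1 was above 0 and 6 below at 1 d against uninjured (median -1.29, or -1.06 with bounds), and 6 above and 1 below at 14 d against 1 d (median 1.05, or 0.87 with bounds), with 0 passing. Entpd1, which splits extracellular ATP and ADP, stood at 612, 671 and 521 CPM uninjured, 189, 290 and 384 CPM at 1 d and 465, 710, 602 and 619 CPM at 14 d, so 1 d was lowest of these 3 times without overlap. P2ry13 stood at 358, 416 and 411 CPM uninjured and 105, 305 and 233 CPM at 1 d, while P2ry6, a receptor for UDP, stood at 207, 255 and 205 CPM and 315, 351 and 169 CPM.

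As a share of Cluster 6 UMIs, the list of the damage-associated state made up 1.91%, 2.18% and 1.82% in the uninjured mice and 3.18%, 2.67% and 2.52% at 1 d. At 7 d it made up 4.66% and 2.16% in WT and 6.59% and 1.53% in cKO, and at 14 d 5.58% and 2.60% in WT and 2.88% and 2.55% in cKO. Each 1 d and 14 d mouse was above each uninjured mouse, and the 7 d mice lay on both sides of them. Apoe is on this list, and at 14 d its 27362, 8074, 9671 and 6269 CPM, where 10000 CPM is 1%, were a large part of the share. The 14 d shares thus do not show a rise of the list apart from Apoe. The share was not tested as a single value. Of 26 tested genes of that list, 0 passed at any time, and at 1 d, 7 d and 14 d against uninjured 18, 21 and 20 were above 0. The medians were 0.42, 1.15 and 0.91, or 0.46, 0.90 and 0.56 with bounds, beside -0.06, 0.14 and 0.15 over all genes tested. At 14 d against 1 d, 12 were above and 14 below 0, with a median of -0.07. Apoe stood at 543, 1815 and 1942 CPM uninjured and 882, 1709 and 2908 CPM at 1 d. At 7 d it stood at 14035 and 5616 CPM in WT and 30449 and 1539 CPM in cKO, and at 14 d at 27362 and 8074 CPM in WT and 9671 and 6269 CPM in cKO. Among the tested mice, each 14 d mouse was above each 1 d and uninjured mouse. The untested cKO uninjured replicate 1 stood at 11514 CPM from 6 cells, above all 14 d mice but WT replicate 1. At 7 d the shallow replicate 1 mice were above the replicate 2 mice in both Apoe and the share of this list. Apoe at 14 d against 1 d gave 3.19 ± 1.25 (adjusted p = 0.247), and it passed without cKO 7 d replicate 1, without cKO 7 d replicate 2 and without the mice in conflict, with an adjusted p of 0.0196 to 0.828 over the alternatives.

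Trem2, a lipid-sensing receptor, stood at 1604, 1768 and 1326 CPM uninjured and 1134, 962 and 758 CPM at 1 d, with each 1 d mouse below each uninjured mouse (-0.73, adjusted p = 0.517). Its signalling partner Tyrobp stood at 1694, 2590 and 2021 CPM uninjured, 1975, 1679 and 2420 CPM at 1 d and 4378, 1405, 1543 and 1650 CPM at 14 d, where WT replicate 1 stood far above the rest. The lysosomal protein Cd68 stood at 267, 435 and 379 CPM uninjured and 462, 488 and 310 CPM at 1 d, and the times overlapped. Spp1 had 0 UMIs in the 3 uninjured mice and stood at 1786, 107 and 110 CPM at 1 d, 269, 29.6, 523 and 0 CPM at 7 d and 105, 44.2, 12.6 and 30.9 CPM at 14 d. It was highest in the WT mouse at 1 d, and it did not pass in any comparison. Gpnmb stood at 0 to 25.7 CPM and had too few counts to be tested.

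For lipid and cholesterol handling, 14 of 20 genes were tested and 0 passed. At 7 d and at 14 d against uninjured 14 of 14 were above 0, with medians of 0.92 and 1.08 (0.79 and 0.94 with bounds), and at 1 d 10 were above (median 0.32, or 0.42 with bounds). At 14 d against 1 d, 9 were above and 5 below (median 0.48, or 0.41 with bounds). As a share of Cluster 6 UMIs this list made up 0.237%, 0.338% and 0.324% uninjured. At 7 d it made up 1.66% and 3.36% in the shallow replicate 1 mice (WT, cKO) against 0.777% and 0.378% in replicate 2. Level and depth were thus confounded among the 7 d mice. At 14 d, where no mouse was shallow, it made up 2.97% and 1.05% in WT and 1.19% and 0.872% in cKO. Most of these 14 d shares was Apoe, which is on this list too, at 27362 and 8074 CPM in WT and 9671 and 6269 CPM in cKO. They thus largely repeat the Apoe levels given above. Mylip, which marks lipoprotein receptors for degradation, stood at 198, 170 and 174 CPM uninjured and 213, 437, 288 and 357 CPM at 14 d, without overlap. Lrp1, an Apoe receptor, stood at 517, 388 and 316 CPM uninjured and 238, 459, 407 and 512 CPM at 14 d, and Npc2, a cholesterol carrier, at 655, 614 and 410 CPM against 861, 638, 707 and 637 CPM. Of 22 tested genes of lysosome and phagocytosis, Msr1 alone passed at 14 d against 1 d, with 13 above and 9 below 0 (median 0.33, or 0.26 with bounds). Of 8 tested complement genes, C5ar1 alone passed there, with 1 above and 7 below (median -0.22). Over all genes tested, 0.595% passed and 60.3% were above 0 at 14 d against 1 d.

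The cytokine and chemokine list summed to 785, 756 and 900 CPM uninjured and 3844, 1877 and 2863 CPM at 1 d. It summed to 974 to 1334 CPM at 7 d and 1194 to 1285 CPM at 14 d, and this sum was not tested. Ccl12 and Ccl2, with means of 1420 and 174 CPM at 1 d, made up much of the 1 d sum. The sum thus does not show that the other listed genes were higher at 1 d than at 14 d. Of 12 tested genes of the cytokine and chemokine list, 3 passed at 14 d against 1 d (Ccl2 and Ccl12 lower, Nfkbia higher). Of the list, 8 were above 0 and 4 below, and the median was 0.40. Over all genes tested, 0.595% passed and 60.3% were above 0 (median 0.23). Of 17 tested interferon-response genes 0 passed, and 13 were above 0 and 4 below, with a median of 1.45 that becomes -0.27 with bounds, since 7 had a condition at 0. At 7 d against uninjured 17 of 17 were above 0, with a median of 4.57, or 0.47 with bounds. The sign or size of these medians thus rests on genes at 0 in a condition. Ifitm3, which blocks virus entry, stood at 8.62, 9.45 and 15.8 CPM uninjured, 231, 76.3 and 73.1 CPM at 1 d and 69.2, 37.0, 36.1 and 16.5 CPM at 14 d. The uninjured values rest on 1 or 2 UMIs each, below the floor of those mice. Ifi27l2a, an interferon-induced gene, stood at 21.6, 9.45 and 0 CPM uninjured and 180, 126, 195 and 81.2 CPM at 7 d, without overlap, while Bst2 overlapped. For MHC and antigen presentation, 8 of 13 genes were tested and 0 passed, with 7 above and 1 below 0 at 7 d against uninjured (median 0.62) and 6 above and 2 below at 14 d against 1 d (median 0.67). B2m, the light chain of MHC class I, stood at 1276, 1493 and 1152 CPM uninjured, 1050, 1313 and 890 CPM at 1 d and 2245, 1738, 2989 and 1662 CPM at 7 d, and each 7 d mouse was above the others of those times. H2-D1, a heavy chain, stood at 513, 369 and 300 CPM uninjured and 821, 536, 1198 and 408 CPM at 7 d, and H2-K1 at 362, 208 and 111 against 680, 423, 645 and 251 CPM, both with overlap.

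Of 13 tested genes of glycolysis, 0 passed. At 1 d against uninjured 12 were above 0 and 1 below, with a median of 1.59 (1.22 with bounds), and at 14 d against 1 d 1 was above and 12 below, with a median of -0.92. Gapdh stood at 332, 539 and 237 CPM uninjured, 1618, 1023 and 1214 CPM at 1 d and 665, 282, 387 and 359 CPM at 14 d (-1.55 ± 0.41 at 14 d against 1 d, adjusted p = 0.0696 in edgeR and 0.0272 in DESeq2). With edgeR it passed without the count filter, and on leaving out cKO 7 d replicate 1, cKO 7 d replicate 2 or WT 14 d replicate 1. Pkm, the pyruvate kinase, stood at 90.5, 180 and 158 CPM, then 651, 351 and 320 CPM, then 249, 118, 151 and 179 CPM. For both genes each 1 d mouse was above each mouse of the other 2 times. The hexokinase Hk2 went against the list, at 414, 520 and 395 CPM uninjured, 189, 260 and 379 CPM at 1 d and 845, 516, 443 and 487 CPM at 14 d. As a share of Cluster 6 UMIs the list made up 0.157%, 0.180% and 0.136% uninjured and 0.433%, 0.299% and 0.320% at 1 d. The part of RNA from other cell types, whose markers at 1 d are given above, was not tested.

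Of the immediate early and stress list, 21 genes were tested and 0 passed. At 14 d against 1 d, 18 were above 0 and 3 below (median 1.10, or 0.83 with bounds). At 1 d against uninjured, 8 were above and 13 below (median -1.02, or -0.45 with bounds). Over all genes tested, 60.3% and 47.9% were above 0 in these comparisons (medians 0.23 and -0.06). Jun, a subunit of AP-1, stood at 129, 435 and 379 CPM uninjured, 21.0, 183 and 183 CPM at 1 d and 615, 482, 462 and 625 CPM at 14 d, where each 14 d mouse was above each 1 d mouse. Dissociation can also induce these genes, and its part was not tested. Of 8 tested glucocorticoid-response genes 0 passed, with 5 above and 3 below at 14 d against 1 d (median 0.47, or -0.55 with bounds). Fkbp5, a cochaperone of the glucocorticoid receptor, stood at 435, 123 and 78.9 CPM uninjured and 63.0, 656 and 283 CPM at 1 d, so mice of 1 time differed as much as the times. Of 17 tested genes of integrins and migration 0 passed, with 7 above and 10 below (median -0.19), and Tmsb4x stood at 7153 to 21604 CPM over the 14 mice.

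Of 85 tested genes of cytosolic ribosomal proteins, Rps2 alone passed at 14 d against 1 d, with 29 above 0 and 56 below (median -0.11). Over all genes tested, 0.595% passed and 60.3% were above 0. Rps2 stood at 2101, 1511 and 1351 CPM at 1 d and 521, 610, 559 and 431 CPM at 14 d, without overlap, and fell by 1.61 ± 0.37 (adjusted p = 0.0482). Of 23 tested mitochondrially encoded genes 0 passed, with 7 above and 16 below (median -0.40, or -1.51 with bounds). As a share of Cluster 6 UMIs, the mitochondrially encoded list made up 3.63% to 4.63% in the 5 mice with animal numbers below 10000. In the other 9 mice it made up 2.31%, 2.49% and 2.46% (2 uninjured, 1 at 1 d), 1.28% and 1.13% at 7 d and 1.23% to 1.51% at 14 d, so the share also differed between times within those 9.

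The genotype comparison asks whether Cluster 6 differs when astrocytes lack Ryk, and with edgeR 0 genes (0%) passed for cKO against WT over the injured mice (6 against 5 mice). At an unadjusted p under 0.05 there were 272, DESeq2 called 0, and the smallest adjusted p was 0.999. For cKO against WT in uninjured mice and at 1 d, 7 d and 14 d, edgeR and DESeq2 called 0 genes (0%) each, and 334, 333, 123 and 125 had an unadjusted p under 0.05. The test of whether the genotype difference at 14 d differs from that at 1 d and 7 d gave 0 genes (0%), 260 at an unadjusted p under 0.05 and 0 with DESeq2. Leaving out 1 mouse gave calls at single times without WT 14 d replicate 1 (4 genes) and without WT 7 d replicate 1 (1 gene). With 1 or 2 mice a side at a single time, a difference smaller than the spread between mice was not detectable.

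The marker genes overlapped between genotypes. In the 5 injured WT mice P2ry12 stood at 840, 1155, 1453, 712 and 1534 CPM, and in the 6 injured cKO mice at 744 CPM (lowest) to 2073 CPM (highest). Its log2 fold change was 0.25 ± 0.27 (adjusted p = 0.999), and the genotypes overlapped over most of the range. Tmem119 had 0.39 and Apoe 0.32, each with an adjusted p of 0.999 or above. Leaving out 1 mouse gave -0.05 to 0.46 for Tmem119 and -0.88 to 0.79 for Apoe, so both could turn sign. Of the homeostatic list 18 were above 0 and 11 below (median 0.09), and of the damage-associated list 10 above and 16 below (median -0.17). Over all genes tested, 60.1% were above 0, with a median of 0.11. No member of any of the 18 lists passed in a genotype comparison.

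The other lists gave small medians for cKO against WT over the injured mice. Their counts above and below 0 stand beside 60.1% above 0 over all genes tested (median 0.11). Lysosome and phagocytosis had 13 genes above and 9 below 0 (median 0.09), lipid handling 9 and 5 (0.10), complement 3 and 5 (-0.06) and purine receptors 6 and 1 (0.35, or 0.28 with bounds). The transcription factor list had 10 and 4 (0.12), TGF beta signalling 7 and 4 (0.08), cytokines 7 and 5 (0.02, but -0.02 with DESeq2) and MHC 2 and 6 (-0.10). Interferon response had 7 and 10 (-0.27, or -0.79 with bounds), immediate early genes 16 and 5 (0.33, or 0.15 with bounds) and glucocorticoid response 7 and 1 (0.66, or 0.42 with bounds). None of these groups stood out by a call, and those with the larger medians also had genes at 0 in a condition. Cell cycle had 5 and 5 (-0.14), glycolysis 2 and 11 (-0.15), integrins and migration 12 and 5 (0.10), ribosomal proteins 28 and 57 (-0.08) and mitochondrially encoded genes 16 and 7 (0.28, or -0.28 with bounds).

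The share of Cluster 6 among the microglia of Clusters 6 and 10 was compared over injured mice. At 1 d it was 71.9% in WT replicate 1 (95% interval 63.0% to 79.7%, exact binomial) and 74.5% and 44.3% in cKO. At 7 d it was 71.1% and 52.5% in WT and 69.6% and 57.6% in cKO, and at 14 d 56.0% and 45.5% in WT and 42.6% and 37.5% in cKO. Replicate 1 was above replicate 2 at each time and genotype with both, and the genotypes overlapped at 7 d, while at 14 d both cKO mice were below both WT mice. Over the 3 times the difference cKO minus WT was -7.09 points, with p = 0.454 in a two-sided exact permutation of genotype within times (11 mice, 108 arrangements, smallest possible p = 0.00926). This share of Cluster 6 among Clusters 6 and 10, cKO minus WT, was -3.00 points when paired by replicate (exact p = 0.438), -2.76 in the deeper mice alone and -11.1 in the mice with agreeing conditions. Leaving out 1 mouse gave -12.1 (cKO 1 d replicate 1) to -2.06 (cKO 1 d replicate 2), with -4.41 without WT 1 d replicate 1 and -4.00 without WT 7 d replicate 1. Uninjured mice had 85.9% and 58.2% in WT and 57.9% in cKO replicate 2, given with no test. In cKO uninjured replicate 1 the share was 100%, from 6 cells (exact binomial 95% interval 54.1% to 100%). Loss of cells in dissociation is not known, so the shares are of cells recovered.

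**Figure D3:**
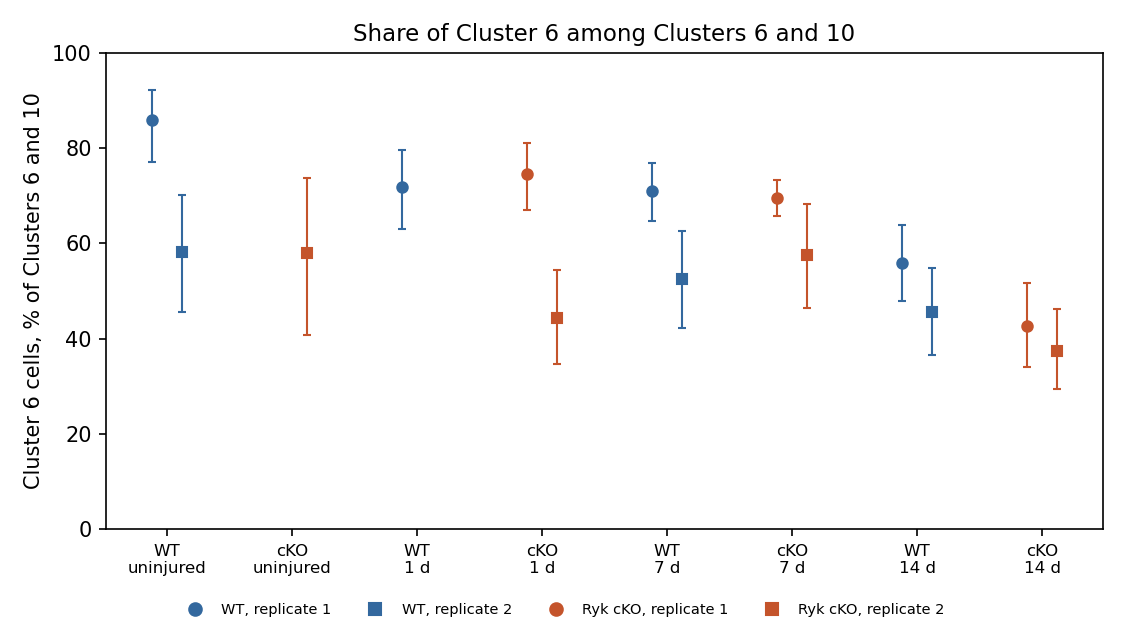
Share (percent) of Cluster 6 among the cells of Clusters 6 and 10 in each mouse by condition, with exact 95% binomial intervals as bars, WT in blue, Ryk cKO in orange, replicate 1 as circles and replicate 2 as squares. At 14 d the WT mice sit at 56.0% and 45.5% and the cKO mice at 42.6% and 37.5%, while at 7 d the genotypes overlap.

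As a share of all cells, Cluster 6 made up 8.49% in WT and 9.81% and 2.55% in cKO at 1 d, 13.5% and 6.31% in WT and 22.5% and 3.22% in cKO at 7 d, and 8.78% and 4.29% in WT and 4.85% and 3.41% in cKO at 14 d. Again the replicate 1 mice were above the replicate 2 mice, and the genotypes overlapped at each time. The difference cKO minus WT was -0.588 points (two-sided exact permutation p = 0.889, 11 mice). This share of Cluster 6 among all cells, cKO minus WT, turned sign without WT 1 d replicate 1 (0.272), cKO 1 d replicate 2 (0.623), WT 7 d replicate 1 (0.605), cKO 7 d replicate 2 (2.62) or WT 14 d replicate 1 (0.159). The difference was -2.75 points in the deeper mice alone and -2.29 in the mice with agreeing conditions.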

How the data were processed

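The authors aligned reads with Cell Ranger to mm10 (GRCm38), kept cells with over 200 genes and under 25% mitochondrial UMIs with Seurat, integrated with Harmony and clustered by Leiden. The deposited matrices hold UMI counts, as a count per gene and cell, and the deposited cell table gives the mitochondrial share as a percent. The members and lists were chosen with earlier results of these data known. UMIs of Cluster 6 were summed per mouse (at least 10 cells) and fitted with edgeR 4.0.16 (TMM, filterByExpr, robust quasi-likelihood, 8 condition means, Benjamini-Hochberg) in R 4.3.3. DESeq2 1.42.0 was the other tool, and shares used scipy 1.17.1 in Python 3.11.15. SE is the log2 fold change over the root of F. A bound sets a condition at 0 to 3 counts.

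Named genes are the 4 markers, Ryk, Apoe, Trem2, Tyrobp, Cd68, Spp1 and Gpnmb, up to 12 called and non-overlapping genes per direction with the largest log2 fold change per comparison, list members called or otherwise the 4 most abundant, and the 10 leading and 10 most abundant genes. No doublet caller was used, and cells with markers of other types were counted instead. The 18 gene lists and 13 marker lists covered the roles described above. Coordinates are from GENCODE M21.

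The batch column of the deposited cell table equals the replicate number in 16 of 16 mice, so replicates of a number share a batch. The deviations of replicates from their condition means correlated between pairs of conditions across 7394 genes at -0.258 to 0.466, and a replicate block was tried. Further alternatives were DESeq2, other count filters, cells of at least 500 UMIs, no cells with other types' markers, at least 30 cells per mouse, an animal number term, the conditions of the cell names and leaving out each mouse. The alternatives with deeper mice only, animal numbers of at least 10000 only, mice without conflicting conditions only and no shared barcodes were chosen after seeing the data.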

Additional observations from a re-analysis of the deposited data

How the results depend on the processing

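At 14 d against 1 d, the 44 calls became 131 without a count filter, 4 with an animal number term, 0 with conditions read from the cell names, 83 with animal numbers of at least 10000 and 87 without shared barcodes. The other alternatives gave 41 to 66, and leaving out 1 mouse gave 4 to 246. At 1 d against uninjured, the 2 calls became 17 with DESeq2, 20 without a count filter, 9 with cells of at least 500 UMIs, 6 with deeper mice, 1 with animal numbers of at least 10000 and 33 without mice in conflict. They became 0 without cells with other types' markers, with at least 30 cells per mouse and with conditions read from the cell names. Leaving out 1 mouse gave 0 to 12. The genes called under an alternative were not always Ran or Pcna.

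After injury against uninjured, the 0 calls became 13 without a count filter, 1 with at least 20 counts, 1 without cells with other types' markers, 1 with deeper mice, 3 with animal numbers of at least 10000 and 16 without mice in conflict (0 to 2 leaving out 1 mouse). At 7 d the 0 calls became 2 with DESeq2, 10 without a count filter, 1 with an animal number term, 1 with animal numbers of at least 10000 and 3 without mice in conflict (0 to 3 leaving out 1 mouse, 3 without cKO 7 d replicate 2). At 14 d they became 12 without a count filter, 1 with at least 20 counts, 1 with deeper mice, 3 with animal numbers of at least 10000 and 14 without mice in conflict (0 to 1 leaving out 1 mouse).

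For cKO against WT over the injured mice the 0 calls became 1 without a count filter, 2 with deeper mice, 1 with animal numbers of at least 10000 and 1 without mice in conflict (0 leaving out any 1 mouse). Summed over single times they became 1 with an animal number term, 3 with conditions read from the cell names, 2 with deeper mice, 2 with animal numbers of at least 10000 and 5 without mice in conflict (0 to 4 leaving out 1 mouse, 4 without WT 14 d replicate 1). For 14 d against 1 d and 7 d they became 1 with deeper mice, 1 with animal numbers of at least 10000 and 1 without mice in conflict (0 leaving out any 1 mouse). The cause was not tested. Without the mice in conflict 1 uninjured mouse was left, so the counts against uninjured rest on it. With deeper mice or animal numbers of at least 10000, cKO 1 d replicate 2 was the 1 mouse at 1 d. In these fits the spread was taken from other conditions.

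With the replicate block, 63 genes passed at 14 d against 1 d, 44 of them among the 44, and paired by replicate the share of Clusters 6 and 10 differed by -3.00 ± 7.63 points (5 pairs, exact p = 0.438). The share of Cluster 6 among all cells, cKO minus WT, turned sign with the block (0.482, exact p = 0.875) and with cells of at least 500 UMIs (0.0418, exact p = 1). Leaving out 1 mouse, the share of Clusters 6 and 10 ran from -12.1 to -2.06 points and the share of all cells from -3.79 to 2.62.

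The 46 gene and comparison pairs that passed kept their direction in all but 1 of 1208 values (Ly6c1 at 14 d against 1 d, 0.31 without cells with other types' markers) and their side of the threshold in 799. For 14 genes that had not passed (74 pairs, 1977 values), 1855 values moved by at most 1 SE, 113 by more and 9 came to pass. Genes given by level alone were not refitted. At 1 d a gene below 63.0 CPM can be missed in the WT mouse, which was shallow. Among the uninjured mice the same holds below 47.4 CPM in cKO replicate 2, which was not shallow.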

Other observations

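The following genes were chosen after their values were seen. Cwc22, a splicing factor, stood at 1006 CPM in Cluster 6 of WT 7 d replicate 2, with a UMI in 53 of 53 cells, against 0 to 47.4 CPM in the other 13 mice. In that mouse it stood at 542 CPM in Cluster 10 and 1143 CPM in the cells outside both clusters, where the other mice had 17.1 to 36.6 CPM. The high level was thus found across the cells of 1 library and not in Cluster 6 alone.

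Slc1a3, a glutamate transporter of astrocytes, stood at 1861 CPM in Cluster 6 of WT 14 d replicate 2, with a UMI in 56 of 56 cells, against 63.2 to 345 CPM in the other 13 mice. In Cluster 10 of the same mouse it stood at 391 CPM, within the 0 to 428 CPM of the others, and outside both clusters at 141 CPM. The astrocyte marker Gfap stood at 22.8 CPM in Cluster 6 of that mouse, against 0 to 132 CPM in the others, so Slc1a3 was not accompanied by Gfap.

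The 6 Cluster 6 cells of cKO uninjured replicate 1, which were in no comparison, held 19194 UMIs. P2ry12 stood there at 1094 CPM, Cx3cr1 at 4220 CPM, Siglech at 990 CPM, Tmem119 at 938 CPM and Apoe at 11514 CPM, and Spp1 had 0 UMIs. Apoe had UMIs in 3 of the 6 cells.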
